A study of Mus musculus with 11 samples.

Results

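The genes described here are those of the tumor necrosis factor (TNF) superfamily in mouse liver: its ligands, their receptors, and the TNF receptor-associated factors (TRAFs), which carry signals inside the cell. They were taken by gene symbol, with no cut on any measured value, and 48 of the 31280 genes in the table matched: 17 ligands, 24 receptors and 7 TRAFs. The family was chosen with earlier results of these data known. The limonin group (6 libraries) came from C57BL/6 wild-type mice fed a diet lacking methionine and choline (MCD) for 8 weeks and given limonin, a triterpenoid of citrus fruit, into the stomach at 100 mg/kg for 4 weeks. The MCD group (5 libraries) came from mice of the same strain and genotype on the same diet that were given water. The diet impairs the export of fat from the liver and is used as a model of steatohepatitis, and both groups received it, so every value below sets limonin against water under that diet. Expression was measured by RNA sequencing of whole liver, in sequenced fragments scaled to transcript length and library size (FPKM).

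TNF ligands are mostly trimeric proteins, held on the cell surface or cleaved from it, that bring receptors on the target cell together. Receptors with a death domain recruit TRADD or FADD and can lead to caspase activation, whereas the other signalling receptors bind TRAFs directly; both kinds reach the transcription factor NF-kappaB and the kinase JNK. In the liver, TNF made by macrophages acts on hepatocytes, lymphotoxin acts through the lymphotoxin beta receptor, and TWEAK with its receptor Fn14 is known for its part in progenitor cell expansion and repair.

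Most of the family was expressed at low levels in these livers. Of the 48 genes, 14 reached 1 FPKM in at least 5 libraries and entered the comparison of all genes: 2 of 17 ligands, 7 of 24 receptors and 5 of 7 TRAFs. A further 23 reached 0.1 FPKM in at least 5 libraries, and the other 11 did not. The steps between low values imply about 15670000 to 19720000 fragments per library, so that 1 fragment on a transcript of 2000 bases is worth 0.0253 to 0.0319 FPKM and the lowest values rest on a few fragments. Between 9742 and 11087 genes per library reached 1 FPKM, and the sample labels used here name no batch.

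In the limonin livers 7 of the 14 tested genes fell, none rose and 7 were not called (limma, adjusted p under 0.05 over all 10489 genes tested). Over all tested genes, 18.7% were called lower and 7.24% higher. The genes that fell were the ligands Ltb and Tnfsf12, the receptors Tnfrsf12a, Tnfrsf1b and Tnfrsf21, and the adaptors Traf2 and Traf7. The median log2 fold change of the 14 genes was -0.29, against -0.07 over all tested genes. In whole liver, fewer cells of a type and less RNA per cell cannot be told apart. Ltb passed the filter only with the help of its MCD libraries, so its call is not independent of the filter; the other 13 genes also passed on the limonin libraries alone. The number called lower was 2 without MCD 2 and 4 without MCD 1, where 9.68% and 12.6% of all tested genes were called lower. Scaling by median ratios left 6 genes lower, quantile normalization 6 and equal summed FPKM 2, each with 1 gene called higher. Of all tested genes, 15.2%, 15.4% and 10.6% were called lower under these 3 scalings, and 14%, 17.3% and 10.4% higher. At equal summed FPKM the calls of Tnfrsf12a, Tnfrsf1b, Tnfrsf21, Traf2 and Traf7 were lost (adjusted p 0.0503, 0.0739, 0.121, 0.0564 and 0.0563, limma), and that of Tnfrsf21 also with median ratios (0.0636) and quantiles (0.0981). In all genes the share of calls that were higher was 27.9% as deposited, 47.9% with median ratios, 52.9% with quantiles and 49.6% with equal sums. Every limonin library lay below every MCD library in 3 of the 14 genes, against 8.33% of all tested genes, and above in none, against 2.97%. With no filter 8 of the 48 were called lower and none higher (5.68% and 1.32% of all genes). The authors' deposited table marks 11 of the 48 as lower and none as higher, against 6.92% and 3.73% of all genes. Those marks go with a change of at least 1.5-fold, a cut that the limma calls do not have.

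**Figure D1:**
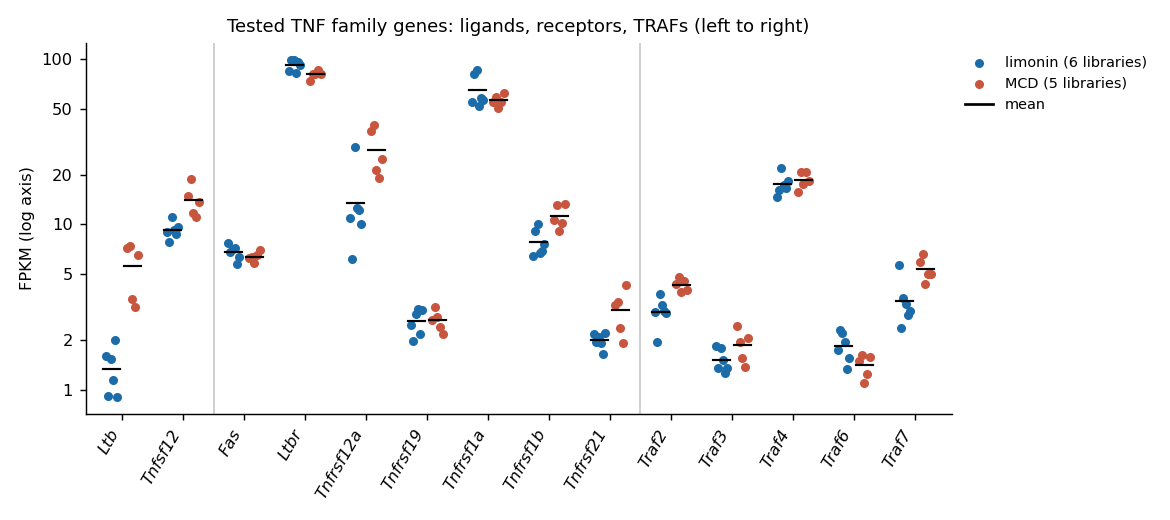
FPKM of the 14 tested TNF family genes in each library, on a log axis, with ligands, receptors and TRAFs separated by grey lines; points are libraries (6 limonin, left of each pair, and 5 MCD, right) and bars are group means. Every limonin library lies below every MCD library for Ltb, Tnfsf12 and Traf2, while Ltbr and Tnfrsf1a stand above all other members at 50.3 FPKM or more.

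The ligand RNA pool was small and was led by a single gene. The summed level of the 17 ligands ran from 10.6 to 15.5 FPKM in limonin livers and from 17.5 to 32.1 FPKM in MCD livers. The groups did not overlap. The summed FPKM of all genes also did not overlap, at 404100 to 462700 with limonin and 464200 to 471600 in MCD livers. The ligand sums are not scaled for this. Tnfsf12, which encodes TWEAK, made up 67.5% to 79.3% of that sum in limonin livers and 52.6% to 63.7% in MCD livers. Ltb made up 7.38% to 15.6% of it in limonin livers and 18.1% to 27.1% in MCD livers.

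Ltb encodes lymphotoxin beta, the membrane anchor of the lymphotoxin heterotrimer, which is known from lymphocytes. In limonin livers it ran from 0.897 to 1.99 FPKM with a median of 1.33. In MCD livers it was 7.23, 7.34, 3.55, 3.16 and 6.54 FPKM (MCD 1 to 5). The groups did not overlap, and within the MCD group libraries 1, 2 and 5 lay well above libraries 3 and 4. The mean was 1.34 ± 0.433 FPKM (SD, n = 6) with limonin and 5.57 ± 2.05 FPKM (SD, n = 5) in MCD livers. This is a log2 fold change of -1.44 ± 0.20 (SE; adjusted p 0.0012, limma) on log2(FPKM + 1), a scale that understates the change of low genes. With a pseudocount of 0.1 the log2 fold change was -1.94. The call held in each of the 11 fits that left out 1 library, where the largest adjusted p was 0.00543.

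Tnfsf12 was 7.81 to 11.02 FPKM in limonin livers, with a median of 9.11. The MCD livers had 14.9, 18.7, 11.7, 11.1 and 13.6 FPKM. The groups did not overlap, but the highest limonin library and the lowest MCD library nearly met. The log2 difference was -0.54 ± 0.13 (SE; adjusted p 0.00932, limma), and the largest adjusted p with 1 library left out was 0.0279. Tnfsf12 shares its whole length of 9600 bases with Tnfsfm13, a read-through transcript listed as a gene of its own with a mean of 3.12 FPKM, so the division of fragments between them is uncertain.

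Tnf, the founding ligand of the family, fell just short of the filter, because MCD 3 stood at 0.991 FPKM. In limonin livers Tnf ran from 0.126 to 0.926 FPKM, with a median of 0.470. MCD livers had 2.09, 2.34, 0.991, 1.17 and 2.52 FPKM. The groups did not overlap, and as for Ltb the values of MCD 3 and 4 were the lowest of their group. The mean was 0.484 ± 0.268 FPKM (SD, n = 6) with limonin and 1.82 ± 0.696 FPKM (SD, n = 5) in MCD livers. A second fit, chosen after the data were seen, took in genes with 0.1 FPKM in at least 5 libraries, 17759 in all, on log2(FPKM + 0.1). In it Tnf fell by 1.77 ± 0.36 (SE) on the log2 scale with an adjusted p of 0.0065 (limma), and the largest adjusted p without 1 library was 0.0241. With no filter and a pseudocount of 1 the adjusted p of Tnf was 0.0222.

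Ltb, Tnf and Lta lie side by side on chromosome 17 within the major histocompatibility region (GRCm38, GENCODE M21). Ltb spans 35194439 to 35196320 on the plus strand, Tnf 35199381 to 35202007 and Lta 35203165 to 35205351, both on the minus strand. Gaps of 3060 and 1157 bases separate them. Lta, whose product forms the soluble lymphotoxin alpha trimer, was barely measured: it was listed at 0 in limonin 2, 3 and 4 and in MCD 3 and 4, and its highest value was 0.181 FPKM, in MCD 1. Promoters of Ltb and Tnf are shown because both genes fell and are neighbours, and those of Tnfrsf12a and Traf2 as a receptor and an adaptor that fell. Sequences are from RefSeq (GRCm38.p6), 250 bases before to 50 after the start site, read 5′ to 3′ on the strand of the gene. Capitals mark matches, on either strand, to a short form of the NF-kappaB site, to the AP-1 site TGANTCA or to the TATA box, searched as TATAAA. The NF-kappaB form was GGG followed by any 3 bases and then by TTCC.
Ltb, chr17:35194257-35194556, plus strand: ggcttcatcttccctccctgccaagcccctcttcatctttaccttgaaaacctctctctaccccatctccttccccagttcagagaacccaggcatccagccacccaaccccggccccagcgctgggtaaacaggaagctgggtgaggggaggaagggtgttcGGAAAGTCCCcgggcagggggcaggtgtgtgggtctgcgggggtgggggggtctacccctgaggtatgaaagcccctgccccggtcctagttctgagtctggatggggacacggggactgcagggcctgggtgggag
Tnf, chr17:35201958-35202257, minus strand: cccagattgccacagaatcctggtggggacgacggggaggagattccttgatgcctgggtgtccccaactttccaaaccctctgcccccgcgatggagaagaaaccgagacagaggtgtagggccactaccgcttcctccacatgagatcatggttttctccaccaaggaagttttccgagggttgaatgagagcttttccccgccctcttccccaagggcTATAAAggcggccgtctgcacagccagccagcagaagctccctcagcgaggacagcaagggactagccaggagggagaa
Tnfrsf12a, chr17:23677400-23677699, minus strand: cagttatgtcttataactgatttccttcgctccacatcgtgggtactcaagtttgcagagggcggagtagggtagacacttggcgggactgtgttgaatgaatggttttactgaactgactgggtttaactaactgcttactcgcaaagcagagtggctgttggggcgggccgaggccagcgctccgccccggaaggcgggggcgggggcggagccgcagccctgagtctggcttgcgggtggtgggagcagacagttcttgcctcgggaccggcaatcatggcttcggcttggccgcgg
Traf2, chr2:25546891-25547190, minus strand: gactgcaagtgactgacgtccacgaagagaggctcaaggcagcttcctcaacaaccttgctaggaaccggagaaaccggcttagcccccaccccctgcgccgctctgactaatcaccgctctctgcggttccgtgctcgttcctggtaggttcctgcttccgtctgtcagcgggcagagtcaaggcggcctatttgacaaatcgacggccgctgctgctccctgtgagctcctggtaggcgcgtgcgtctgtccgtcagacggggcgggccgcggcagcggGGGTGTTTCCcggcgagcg
The Ltb match to the NF-kappaB form begins 87 bases before the start site and reads GGGACTTTCC on the opposite strand. The Traf2 match, GGGTGTTTCC, begins at base 32 after the start site. Of 38 family genes with a promoter entry, 8 held such a match, among them 3 of the 6 genes that fell and have an entry (Ltb, Traf2 and Traf7) and 1 of the 7 tested genes that were not called (Traf3). Of all 32851 promoters of this length 5.56% held one. The TATA form was found in 13.6% of all promoters and in Tnf 29 bases before the start, and the AP-1 form in 7.81% and in none of these 4. The forms searched do not overlap in the sequences shown.

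The remaining ligands were low. Tnfsf9, the 4-1BB ligand, ran from 0 to 0.15 FPKM in limonin livers and stood at 0.308, 0.605, 0.339, 0.252 and 0.0374 FPKM in MCD livers. It was called lower in the second fit (log2 fold change -1.18 ± 0.37, adjusted p 0.0375, limma), but passed that filter in only 6 of the 11 fits without 1 library and lost the call in 4 of them. It also overlaps MCD 5 and passed the filter only through MCD libraries. Tnfsf10 (TRAIL) had 0.708 ± 0.164 FPKM (SD, n = 6) with limonin and 0.691 ± 0.147 FPKM (SD, n = 5) in MCD livers. Tnfsf13 (APRIL), Tnfsf13b (BAFF) and Tnfsf14 (LIGHT) had ratios of mean FPKM, limonin over MCD, of 0.718, 0.468 and 0.696 and were not called. Tnfsf13 lies wholly within Tnfsfm13 too. Below the lower filter stood 9 ligands, among them Fasl, Cd40lg, Cd70 and the RANK ligand Tnfsf11, with no library above 0.181 FPKM.

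Receptor RNA was far more abundant than ligand RNA, and its sum overlapped between the groups. The 24 receptors summed to 195 ± 27.6 FPKM (SD, n = 6) in limonin livers and 197 ± 13.9 FPKM (SD, n = 5) in MCD livers. Ltbr, the receptor of lymphotoxin and LIGHT, made up 40.8% to 51.5% of this sum with limonin and 37.3% to 46.1% in MCD livers. Tnfrsf1a, the death-domain receptor of TNF, made up 30.3% to 38.7% with limonin and 27.3% to 30.6% in MCD livers. Both genes lie on chromosome 6 with 35476 bases between them.

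Ltbr ran from 82.6 to 99.1 FPKM in limonin livers, with a median of 93.9. MCD livers stood at 73.5, 81.2, 81.3, 86.3 and 81.2 FPKM. The groups overlapped in MCD 4 and limonin 1 and 4. The log2 difference was 0.19 (95% interval -0.0014 to 0.37; adjusted p 0.128, limma). After scaling to equal summed FPKM it was called higher (0.31, adjusted p 0.0338). Ltb fell, while its receptor was not called on the values as deposited. The authors' deposited table gives Ltbr a q of 0.0387 with a log2 fold change of 0.19, and does not mark it.

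The balance between the receptors of TNF itself differed between the groups. Tnfrsf1b, the second TNF receptor, which has no death domain, signals through TRAF2 and is known mainly from immune and endothelial cells, ran from 6.398 to 10.02 FPKM with limonin, with a median of 7.22. The 5 MCD livers had 10.6, 13.2, 9.16, 10.3 and 13.2 FPKM. Limonin 3, the highest of its group, lay above MCD 3, and 5 of 6 limonin libraries lay below every MCD library. It fell by 0.49 ± 0.13 (SE) on the log2 scale (adjusted p 0.016, limma), a p which became 0.0547 without MCD 2 and 0.0739 after scaling to equal summed FPKM. Tnfrsf1a ran from 51.9 to 86.2 FPKM with limonin, with a median of 57.2. MCD livers stood at 54.9, 58.7, 50.3, 54.7 and 62.4 FPKM. Limonin 2 and 3 stood at 81.5 and 86.2 FPKM and the other 4 limonin libraries lay within the MCD range. The difference was 0.18 on the log2 scale (95% interval -0.12 to 0.47; adjusted p 0.366, limma).

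Within a library, the ratio of Tnfrsf1b to Tnfrsf1a does not depend on the scaling between libraries. It ran from 0.112 to 0.134 in limonin livers, with a median of 0.118. In MCD livers it was 0.193, 0.224, 0.182, 0.187 and 0.212. The groups did not overlap, and the gap between them was wider than the whole range of the limonin group. The mean log2 ratio was -3.03 ± 0.10 (SD, n = 6) with limonin and -2.32 ± 0.12 (SD, n = 5) in MCD livers, a difference of -0.71. An exact two-sided permutation test over all 462 splits gave p = 0.00433, the smallest it can give, and 0.00866 adjusted over the 2 ratios compared. Leaving out each library in turn gave differences of -0.74 to -0.67. The pair of receptors was picked with earlier results of these data known.

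**Figure D2:**
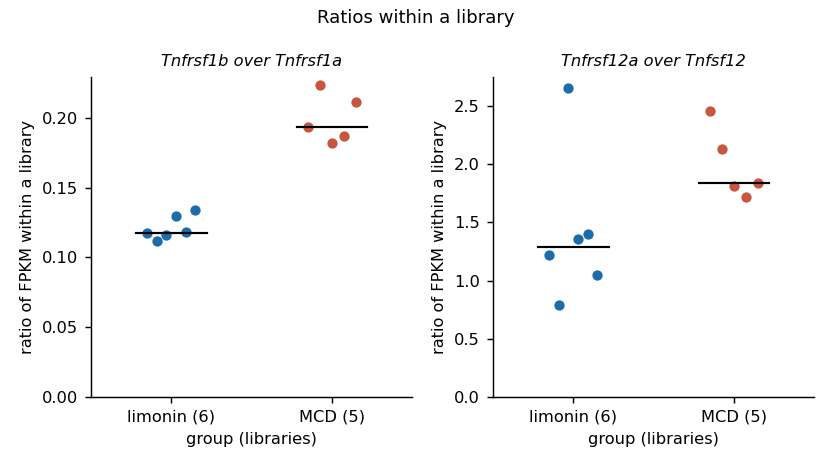
Ratios of FPKM within each library for Tnfrsf1b over Tnfrsf1a (left panel) and Tnfrsf12a over Tnfsf12 (right panel); points are libraries, bars are group medians, and both axes start at 0. The 6 limonin libraries lie at 0.134 or less in the left panel and the 5 MCD libraries at 0.182 or more, whereas limonin 3 lies above all others in the right panel.

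Tnfrsf12a encodes Fn14, the receptor of TWEAK, a small receptor induced on injured epithelial cells. In limonin livers it ran from 6.17 to 29.3 FPKM, with a median of 11.5. The MCD values were 36.6, 39.9, 21.2, 19.1 and 25.0 FPKM. Limonin 3 alone stood within the MCD range, at 29.3 FPKM, while the other 5 limonin libraries lay at 12.5 FPKM or less, below every MCD library. Tnfrsf12a fell by 1.10 ± 0.32 (SE) on the log2 scale (adjusted p 0.0275, limma). Without limonin 3 it was -1.34 with an adjusted p of 0.0026, and the call was lost without MCD 1, MCD 2, limonin 2 or limonin 6 (largest adjusted p 0.0789). Receptor and ligand of this pair both fell. The ratio of Tnfrsf12a to Tnfsf12 ran from 0.790 to 2.66 with limonin and from 1.72 to 2.46 in MCD livers. The difference in log2 ratio was -0.59 (exact permutation p = 0.0649, 0.0649 adjusted), which missed the threshold. Leaving out 1 library gave differences of -0.79 to -0.44. The exact permutation p was 0.00794 without limonin 3, the library opposite to the others, and 0.0667 to 0.133 in the other 10 cases.

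Tnfrsf21 (death receptor 6) was 1.65 to 2.19 FPKM with limonin, with a median of 2.02. MCD livers stood at 3.25, 3.40, 2.35, 1.91 and 4.29 FPKM. MCD 4 lay within the limonin range. Its log2 fold change of -0.40 ± 0.14 (SE) had an adjusted p of 0.0441 (limma), and 8 of the 11 fits without 1 library lost the call (largest adjusted p 0.116). Those without MCD 3, MCD 4 or limonin 1 kept it.

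Among the receptors not called, Fas, the death receptor that makes hepatocytes sensitive to Fas ligand, ran from 5.74 to 7.73 FPKM with limonin and from 5.80 to 6.96 FPKM in MCD livers. The log2 difference for Fas was 0.08 (95% interval -0.11 to 0.28). Tnfrsf19 (TROY) ran from 1.97 to 3.09 FPKM with limonin and from 2.17 to 3.16 FPKM in MCD livers, with a log2 fold change of -0.02 (95% interval -0.26 to 0.22) whose sign turned under each of the 3 other scalings. For both genes the interval leaves no room for a change of the size seen in Ltb or Tnfrsf12a.

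**Figure D3:**
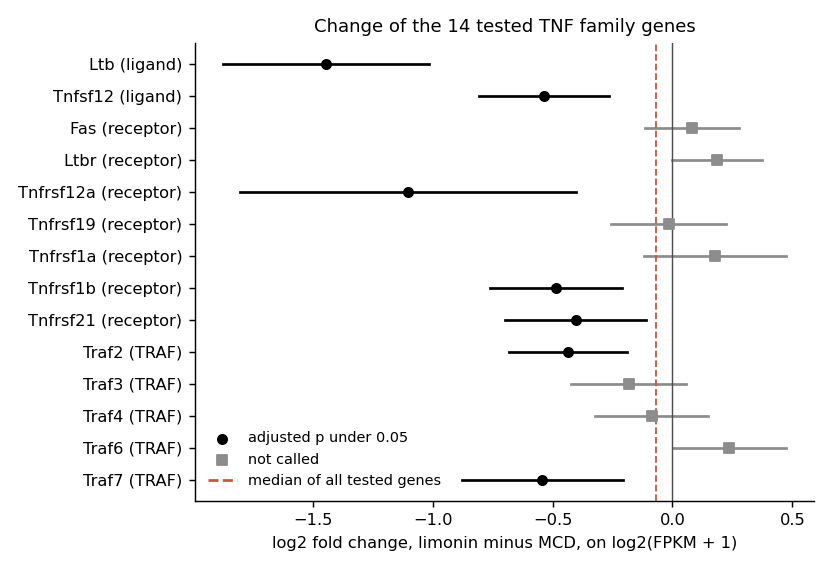
Log2 fold change (limonin minus MCD) of the 14 tested TNF family genes with 95% intervals from limma; black circles have an adjusted p under 0.05, grey squares do not, and the dashed line is the median of all tested genes at -0.07. Ltb at -1.44 and Tnfrsf12a at -1.10 stand farthest from it.

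The TRAFs are adaptors and, for most members, ubiquitin ligases. Traf2, which joins TNF receptors and Fn14 to NF-kappaB and JNK, ran from 1.96 to 3.78 FPKM with limonin, with a median of 2.96. The MCD values were 4.35, 4.81, 3.92, 4.54 and 4.00 FPKM. The groups did not overlap, with limonin 3 just under MCD 3. Traf2 fell by 0.44 ± 0.12 (SE) on the log2 scale (adjusted p 0.016, limma; 0.0523 without MCD 2). Traf7, a divergent member with WD40 repeats, ran from 2.35 to 5.66 FPKM with limonin, with a median of 3.16. MCD livers had 5.95, 6.63, 4.34, 5.02 and 4.99 FPKM. Limonin 1 alone stood within the MCD range. Traf7 fell by 0.54 ± 0.16 (SE) on the log2 scale (adjusted p 0.0226, limma). Without MCD 1 or MCD 2 the call was lost (largest adjusted p 0.0719).

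Traf6 and Traf3 stood on opposite sides of 0 without being called. Traf6, which also serves interleukin 1 and Toll-like receptors, ran from 1.34 to 2.31 FPKM with limonin and from 1.10 to 1.62 FPKM in MCD livers. The log2 difference was 0.24 ± 0.11 (SE; adjusted p 0.125, limma). It was called higher after median-ratio scaling (0.30, adjusted p 0.033, limma) and quantile normalization (0.38, adjusted p 0.0112, limma). The authors' deposited table gives Traf6 a q of 0.0051 but does not mark it. Traf3, which holds the kinase NIK in check, ran from 1.26 to 1.83 FPKM with limonin and from 1.36 to 2.44 FPKM in MCD livers, with a log2 fold change of -0.18 (95% interval -0.42 to 0.06). Traf4 was the most abundant TRAF at 17.4 ± 2.46 FPKM (SD, n = 6) with limonin and 18.5 ± 2.15 FPKM (SD, n = 5) in MCD livers. Its log2 fold change of -0.09 (95% interval -0.32 to 0.15) changed sign after median-ratio scaling and at equal summed FPKM.

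The second fit, with the 0.1 FPKM filter, held 37 of the 48 genes and called 14 of them lower and none higher. Over all 17759 genes in that fit 16.3% were called lower and 6.31% higher. Of the 37, 6 passed the filter only with help from MCD libraries. The 14 were 6 of the 7 genes already named (Tnfrsf21 had an adjusted p of 0.0503) and 8 low-level genes: Tnf, Tnfsf9, Cd40, Tnfrsf25, Tnfrsf4, Tnfrsf9, Traf1 and Traf5. They are described because of these calls, after their values were seen. In this fit the number called lower was 5 without MCD 2 and 8 without MCD 1, 8 without limonin 5 and 6, and 8 at equal summed FPKM. Of all genes in the fit, 8.53%, 10.7%, 11.2% and 9.8% were called lower in these 4 cases. In 7 of the 37 genes every limonin library lay below every MCD library (Ltb, Tnf, Tnfsf12, Tnfrsf9, Traf1, Traf2 and Traf5), against 7.75% of all genes in the fit.

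Traf1, an NF-kappaB target that pairs with TRAF2, ran from 0.118 to 0.274 FPKM with limonin and stood at 0.424, 0.764, 0.435, 0.314 and 0.5495 FPKM in MCD livers. It fell by 0.99 ± 0.24 (SE) on the log2 scale (adjusted p 0.0141, limma), and the call held without each library in turn (largest adjusted p 0.0437). Traf5, a partner of CD27 and CD40 signalling, ran from 0.254 to 0.623 FPKM with limonin and stood at 1.002, 1.11, 0.848, 0.687 and 0.828 FPKM in MCD livers, a log2 fold change of -0.72 ± 0.21 (SE). Both genes separated the groups in every library. Traf5 shares 631 bases with the abundant pseudogene Gstp-ps (81.4 FPKM on the same strand), so its level is uncertain, and 3 of 11 fits without 1 library lost its call.

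Cd40, the receptor that receives T cell help on B cells and macrophages, ran from 0.0602 to 0.407 FPKM with limonin and stood at 0.839, 1.04, 0.605, 0.346 and 0.751 FPKM in MCD livers. Only MCD 4 lay within the limonin range. Cd40 fell by 1.24 ± 0.34 (SE) on the log2 scale (adjusted p 0.022, limma), a p which passed 0.05 without MCD 1 or MCD 2. Tnfrsf9 (4-1BB), the receptor of Tnfsf9 on activated T and NK cells, ran from 0 to 0.143 FPKM with limonin and stood at 0.205, 0.213, 0.168, 0.345 and 0.206 FPKM in MCD livers. It did not overlap, but it passed the filter only through MCD libraries and shares 28781 bases with Camta1 on the opposite strand, whose reads cannot be told from it unless strand was used in quantification. Tnfrsf4 (OX40), also a receptor of T cells, ran from 0.342 to 0.948 FPKM with limonin, with a median of 0.680, and stood at 1.62, 1.45, 0.7285, 1.003 and 1.44 FPKM in MCD livers. MCD 3 lay within the limonin range. Its log2 fold change was -0.80 ± 0.26 (SE; adjusted p 0.0417, limma), and 7 of the 11 fits without 1 library lost the call. Tnfrsf25 (death receptor 3), likewise known from T cells, ran from 0.140 to 0.259 FPKM with limonin, with a median of 0.172, and stood at 0.416, 0.650, 0.734, 0.6505 and 0.152 FPKM in MCD livers. MCD 5 lay within the limonin range. The log2 fold change was -1.05 ± 0.30 (SE; adjusted p 0.0247, limma), and 3 of the 11 fits lost the call.

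**Figure D4:**
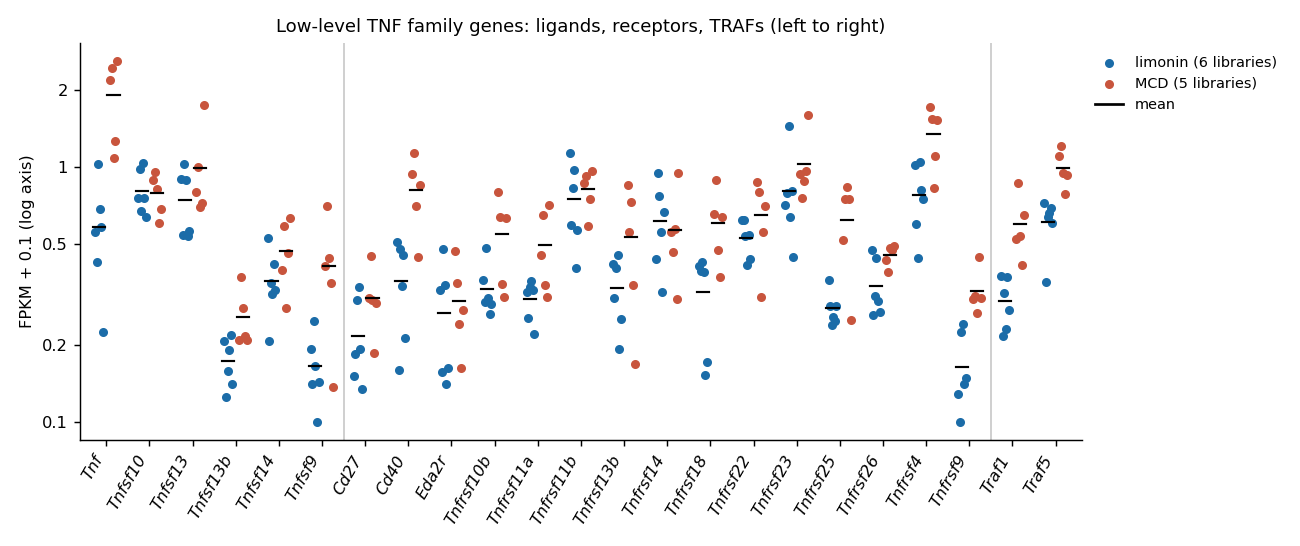
FPKM + 0.1, on a log axis, of the 23 TNF family genes that reached 0.1 FPKM but not 1 FPKM in at least 5 libraries, with ligands, receptors and TRAFs separated by grey lines; points are libraries (limonin left, MCD right) and bars are group means. Tnf, Tnfrsf9, Traf1 and Traf5 show no overlap between the groups.

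The other 15 low-level genes were not called. Tnfrsf18 (GITR) came nearest, with a log2 fold change of -0.96 ± 0.34 (SE) and an adjusted p of 0.0545 (limma). Tnfrsf10b, the TRAIL death receptor, had 0.234 ± 0.0796 FPKM (SD, n = 6) with limonin and 0.445 ± 0.209 FPKM (SD, n = 5) in MCD livers (adjusted p 0.112, limma). Tnfrsf11a (RANK) had 0.205 ± 0.0532 FPKM (SD, n = 6) with limonin and 0.393 ± 0.179 FPKM (SD, n = 5) in MCD livers (adjusted p 0.0904, limma). Tnfrsf11b (osteoprotegerin), a soluble decoy, had 0.651 ± 0.279 FPKM with limonin (SD, n = 6) and 0.718 ± 0.152 FPKM in MCD livers (SD, n = 5). Tnfrsf22, Tnfrsf23 and Tnfrsf26, a mouse cluster of TRAIL receptor relatives on chromosome 7 with gaps of 6083 and 16147 bases, had ratios of mean FPKM of 0.781, 0.762 and 0.687, limonin over MCD; they resemble each other in sequence, so reads may be divided between them with error.

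Some libraries stood at the end of their group again and again. Among the 7 genes that fell in the comparison at 1 FPKM, limonin 3 was the highest limonin library in 4 and limonin 2 the lowest in 4. MCD 2 was the highest MCD library in 5, while MCD 4 was the lowest in 4 and MCD 3 in the other 3. Over the 14 genes of the second fit, MCD 2 was the highest in 9 and MCD 3 and MCD 4 the lowest in 6 each.

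**Figure D5:**
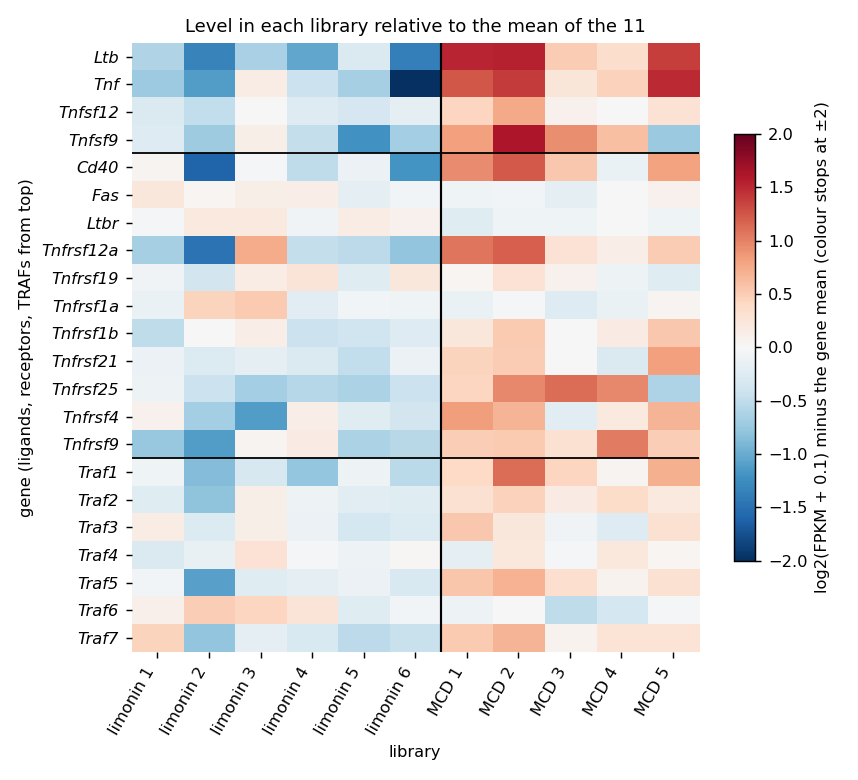
Level of 22 TNF family genes (the 14 tested at 1 FPKM and the 8 called only in the second fit) in each library, as log2(FPKM + 0.1) minus the gene's mean over the 11 libraries; red is higher, blue lower, the black vertical line parts limonin (left) from MCD (right). MCD 1, 2 and 5 are red for Ltb and Tnf, MCD 3 and 4 are paler, and limonin 3 is red for Tnfrsf12a.

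Markers of several other liver and blood cell types were also lower with limonin, while hepatocyte markers were not. Summed marker levels of recruited macrophages, which make Tnf, ran from 56.2 to 145 FPKM with limonin and from 114 to 508 FPKM in MCD livers, and 7 of 8 tested markers (10 listed) fell. Those of B and plasma cells, a source of Ltb, were 3.91 to 9.13 FPKM (limonin) and 9.72 to 15.7 FPKM (MCD livers). All 5 tested markers of 10 fell, and 5 stayed under 1 FPKM in every library. Whether the tested markers of this or any other list passed the filter on the limonin libraries alone was not examined. Lower calls in lists with low sums may therefore not be independent of the filter. T and NK cell markers summed to 3.03 to 5.72 FPKM with limonin and 5.16 to 11.6 FPKM in MCD livers. Of the 15, 10 stayed under 1 FPKM in every library, and the 1 that was tested was not called. Dendritic cell markers summed to 13.2 to 31.6 FPKM with limonin and 33.1 to 104 FPKM in MCD livers (2 of 2 tested fell, of 10). Neutrophil markers summed to 4.44 to 9.45 FPKM with limonin and 6.02 to 38.8 FPKM in MCD livers (3 of 4 tested fell, of 10). In each of these lists 6 markers stayed under 1 FPKM in every library. The dendritic sum thus rests on few genes, and the part of H2-Ab1, an MHC class II gene in that list, was not examined. Cholangiocyte markers, of cells that can carry Fn14, summed to 27.4 to 92.0 FPKM with limonin and 76.5 to 416 FPKM in MCD livers, and 7 of 7 tested fell. Stellate cell markers summed to 48.6 to 69.3 FPKM with limonin and 75.8 to 143 FPKM in MCD livers, and 8 of 10 fell. Kupffer cell markers summed to 108 to 168 FPKM with limonin and 133 to 423 FPKM in MCD livers (2 of 8 tested fell), and endothelial markers to 41.7 to 61.4 FPKM with limonin and 43.5 to 82.3 FPKM in MCD livers (2 of 9 tested fell, 1 rose). Hepatocyte markers summed to 36800 to 55510 FPKM with limonin and 35320 to 43300 FPKM in MCD livers, and 3 of 10 rose and none fell, against 7.24% called higher over all genes. Spp1 is in both the macrophage and the cholangiocyte list. Over all lists 35 markers fell and 4 rose, while 16 fell without MCD 2, and 1 rose without MCD 1 or MCD 2. Over all tested genes 18.7% were called lower, and 9.68% without MCD 2. The Kupffer and endothelial counts lie near 18.7%. No listed marker was at 0 in all libraries. The part of these cells in the family's changes was not tested.

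Signalling components downstream of the receptors were followed in 5 lists, read against a median of -0.07 and 18.7% called lower over all tested genes. The lists were chosen with earlier results of these data known, so their counts are not independent of that choice. For these lists and the marker lists, passing the filter on the limonin libraries alone was not examined. Map3k14, Relb and Cx3cl1 had limonin means of 1.003, 1.195 and 1.03 FPKM, near the filter. Their lower calls may therefore not be independent of it. Of 19 tested adaptors and regulators of death signalling (22 listed), 4 fell, none rose and 15 were not called, with a median log2 fold change of -0.14. They were Rnf31, the catalytic subunit of the linear ubiquitin ligase, at -0.43 ± 0.09 (SE, log2), Tnip1 and Tnip2, partners of the deubiquitinase A20, at -0.85 ± 0.19 and -0.35 ± 0.12, and the adaptor Tradd at -0.27 ± 0.09. Of 13 tested kinases and kinase adaptors (15 listed), with a median of 0.01, 2 fell: Tab1, an activator of the kinase TAK1, at -0.67 ± 0.13 and Map3k14, which encodes NIK, the kinase of the non-canonical NF-kappaB route used by the lymphotoxin beta receptor, CD40 and Fn14, at -0.34 ± 0.11. The proximal list had 2 called lower without any of MCD 1, 2 or 5 or limonin 2, 4 or 6, and the kinase list 1 without MCD 1 or 2 or limonin 2, 4 or 6. Without limonin 5, 1 proximal gene and 2 kinases were called higher.

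Among 9 tested NF-kappaB subunits and inhibitors (11 listed), 7 fell and 2 were not called, with a median log2 fold change of -0.49, and 4 were called without MCD 1 or MCD 2. Nfkb2 and Relb, the pair of subunits of the non-canonical route, had 2.39 ± 0.786 and 1.195 ± 0.573 FPKM with limonin (SD, n = 6), against 6.36 ± 1.46 and 3.78 ± 1.17 FPKM in MCD livers (SD, n = 5). Bcl3, a nuclear cofactor of p50 and p52, fell by 0.98 ± 0.17 (SE) on the log2 scale and Nfkbie, an inhibitor, by 0.75 ± 0.16. These are the 4 of the 7 with the smallest p.

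Of 9 tested genes of TNF processing and related family genes (15 listed), 4 fell and 5 were not called, with a median of -0.19. Rhbdf2, the partner that brings the TNF-cleaving protease ADAM17 to the cell surface, had 3.45 ± 0.632 FPKM with limonin (SD, n = 6) and 5.86 ± 1.18 FPKM in MCD livers (SD, n = 5). Sppl2b, an intramembrane protease known to cleave the TNF stalk, fell by 0.51 ± 0.12 (SE) on the log2 scale, Tnfaip8l2 by 0.87 ± 0.25 and Tnfaip2 by 0.65 ± 0.19. The count was 2 without MCD 2, MCD 5 or limonin 2. Of 11 tested chemokine and adhesion genes known to be induced by TNF (19 listed), 8 fell and 3 were not called, with a median of -0.89. Cx3cl1 (fractalkine) had 1.03 ± 0.42 FPKM with limonin and 3.01 ± 0.942 FPKM in MCD livers, and Csf1, a macrophage growth factor, had 2.71 ± 0.666 FPKM with limonin and 5.90 ± 1.58 FPKM in MCD livers (SD, n = 6 and 5). Ccl2 and Ccl5, chemokines of monocytes and T cells, fell by 1.45 ± 0.29 and 1.15 ± 0.25 (SE) on the log2 scale.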

How the data were processed

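Liver RNA in 11 libraries (limonin 6, MCD 5) was sequenced after poly(A) selection with strand-marking libraries, per the labels' protocols. Per the submitters' processing notes, the tools were HISAT2 2.0.4, StringTie 1.3.4d and cutadapt 1.9, and the build is named as GRCh38, which is human, while the gene identifiers are of mouse. Whether quantification used strand, and which test the authors ran, were not given in the sources used here. Per the file headers, the deposited values are FPKM for each gene in each of 11 libraries. Beside them stand the authors' fold ratio of means, its log2, a p-value and a q-value, also as deposited. No counts were used, so no counting intervals are given.

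The test was limma 3.58.1 (R 4.3.3, with trend and robust options, two-sided) on log2(FPKM + 1) over 10489 genes with 1 FPKM in at least 5 libraries, with Benjamini-Hochberg adjustment over all of them at 0.05; a log2 fold change is limonin minus MCD. The procedure was tested on simulated data. Ratios within a library had 0.1 FPKM added to both genes and were tested by exact permutation in scipy 1.17.1. A further ratio, Tnfrsf11b over Tnfsf11, was not run because neither gene reached 1 FPKM in 5 libraries. Depth was estimated in genes with 1 transcript, from the commonest value of FPKM multiplied by transcript length inside a preset window, taken as 1 fragment. All 48 identifiers were found in GENCODE M21. The labels number the replicates and do not say whether each is a different animal; the spread behind the p-values is that between these samples and may be technical.

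For called genes, and for Ltbr and Tnfrsf1a, MCD values are given by library and limonin values by range. Other tested genes not called have a range or a mean and SD in both groups. Each pathway list has up to 4 called genes with the smallest p. Members, lists and tests were chosen with earlier results of these data known. Alternatives were other filters, pseudocounts, scalings, weights, no trend, the replicate number as a block, libraries left out and the authors' calls. Numbers on samples gave no clear sign of pairing.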

Additional observations from a re-analysis of the deposited data

Results flagged for a closer look

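Single libraries that stood apart from the rest of their group were looked for in 22 genes and in both ratios, 48 groups in all. These genes were the 14 tested at 1 FPKM and the 8 called only in the second fit. Chance alone flags about 1 group in 20, and 5 were found. Tnfrsf12a in limonin 3 was 29.3 FPKM, with the other limonin libraries between 6.17 and 12.5 FPKM, and its ratio to Tnfsf12 in the same library was 2.66, with the others between 0.790 and 1.40. Traf7 in limonin 1 was 5.66 FPKM, with the others between 2.35 and 3.57 FPKM. Traf5 in limonin 2 was 0.254 FPKM, with the others between 0.507 and 0.623 FPKM. Tnfrsf9 in MCD 4 was 0.345 FPKM, with the other MCD libraries between 0.168 and 0.213 FPKM.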

How the results depend on the processing

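The fall of Ltb and of Tnfsf12, and of Tnf at the 0.1 FPKM filter, and the lower ratio of Tnfrsf1b to Tnfrsf1a kept their direction and their call in every alternative run on them; without 1 library the ratio differed by -0.74 to -0.67. Among the 14 genes tested at 1 FPKM, the 7 called lower became 3 with no filter, 3 with a filter at 5 FPKM (which Ltb, Tnfrsf19, Tnfrsf21 and 4 of the 5 TRAFs do not pass), 4 without limonin 5 and 6, 4 without MCD 4 and 5, 2 at equal summed FPKM, 4 by the authors' deposited marks and 2 to 7 without 1 library; the cause was not tested. Over all tested genes the share called lower was 17% with a filter at 5 FPKM and 14.8% without limonin 5 and 6. It was 12.7% without MCD 4 and 5, 10.6% at equal summed FPKM and 9.68% to 20.4% without 1 library. With limonin 5 and 6 left out, or under each of the 3 scalings, 1 gene was called higher (Ltbr at equal summed FPKM, otherwise Traf6). Of all tested genes 12.8% were called higher without limonin 5 and 6, and 10.4% to 17.3% under the scalings. At the 0.1 FPKM filter the 14 lower calls became 8 without limonin 5 and 6, 8 at equal summed FPKM and 5 to 16 without 1 library, with 1 higher without limonin 5 and 6 and after each scaling. Of all genes at that filter 11.2%, 9.8% and 8.53% to 17.7% were called lower in these fits. The share called higher was 7.89% without limonin 5 and 6 and 8.31% to 13% after scaling.

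Uncalled changes turned sign for Tnfrsf19 (0.0559 with median ratios, 0.11 with quantiles, 0.073 at equal summed FPKM, 0.0303 with library weights, and -0.0634 to 0.0364 without 1 library, above 0 without MCD 2, limonin 2 or limonin 5) and Traf4 (0.0077 after median-ratio scaling, 0.0294 at equal summed FPKM). The ratio of Tnfrsf12a to Tnfsf12 lay between -0.79 and -0.44 without 1 library.

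Replicate numbers gave no clear sign of pairing. The correlation of deviations from the group mean was 0.0761, -0.235, -0.169, 0.204 and -0.172 for numbers 1 to 5. MCD 4 alone correlated best with its own number. So few correlations cannot settle whether the samples were paired. With the replicate number as a block, in which limonin 6 has no partner, 2 family genes were called lower, 2 at the 0.1 FPKM filter, and in the lists 0 proximal components, 1 kinase, 4 NF-kappaB genes, 1 processing gene, 4 induced genes and 13 cell markers, with 0 markers higher. Under this block 8.51% of all genes tested at 1 FPKM were called lower and 3.46% higher. At the 0.1 FPKM filter these shares were 4.61% and 1.32%.

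Of the proximal components, 2 fell without limonin 5 and 6, 2 with MCD 4 and 5 left out, 2 at equal summed FPKM and 2 to 5 without 1 library, with 1 higher without limonin 5 and 6, 1 with median ratios, 3 with quantiles and 0 to 1 without 1 library. Kinases called lower numbered 1 in each of these sets and after quantile normalization and 1 to 2 without 1 library, with 4 higher without limonin 5 and 6, 1 with median ratios, 3 with quantiles and 0 to 2 without 1 library. NF-kappaB genes called lower were 4 at equal summed FPKM and 4 to 8 without 1 library, processing genes 2 without limonin 5 and 6 and 2 to 4 without 1 library, and induced genes 7 to 9. Cell markers called lower were 22 without limonin 5 and 6, 23 without MCD 4 and 5 and 16 to 32 without 1 library, with 1 higher without MCD 4 and 5 and 1 to 4 without 1 library. Levels under about 0.2 FPKM rest on few fragments.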
